A study of Mus musculus with 4 samples.

Results

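The nuclear receptor superfamily was followed here through 46 mouse genes, taken by symbol from a deposited table of 21881 gene symbols, in which all 46 were found. Of these genes, 26 averaged 1 FPKM or more (fragments per kilobase of transcript, scaled to the mapped fragments of a library) over the 4 libraries and were tested among 11346 genes. The libraries came from polyadenylated RNA of immortalised mesenchymal stem cell lines of C57BL/6 mice, fibroblast-like cells of adult bone marrow. The lines were clone 12 and clone 6, each grown from 1 cell and each of the genotype Dicer f/f, a floxed but intact allele that all 4 cultures carried. Each clone received a puromycin-resistant retrovirus, either pMMP-puro encoding Flag-HA-tagged NR6A1 (2 libraries, 1 per clone) or the same virus as vector control (2 libraries, 1 per clone). The labels name no repeat cultures, so a p-value for the virus measures how alike the 2 lines differed, and a p-value for the clone how alike the lines differed under both viruses.

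Nuclear receptors are transcription factors with a DNA-binding domain of zinc fingers and a domain that in many of them binds a small lipophilic ligand. Steroid receptors bind DNA mostly as pairs of themselves, many others pair with a retinoid X receptor, and several orphans bind a single site alone. In marrow stromal cells they are known for steering the choice between fat and bone, with PPAR gamma on the side of fat and the vitamin D receptor among the regulators of bone. NR6A1, also called GCNF, is an orphan receptor without a known ligand, made in the embryo and the germ line, and is known mainly as a repressor. The series concerns let-7 microRNAs, and Nr6a1 is one of their known targets.

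The let-7 seed, bases 2 to 8 of the microRNA, is shared by the 9 mature let-7 and miR-98 names matched in RefSeq (GRCm38.p6). A pair of them that differ outside the seed are shown with the seed in capitals, because the sites in the receptor genes are defined by it.
mmu-let-7a-5p: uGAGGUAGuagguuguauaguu
mmu-miR-98-5p: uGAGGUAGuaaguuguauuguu

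The longest annotated 3' untranslated region of each receptor gene (GENCODE M21, GRCm38) was searched for the 7 bases that pair with the seed. Matches were present in 3 of the 46 receptor genes (6.52%), against 1878 of 20968 protein-coding genes (8.96%). Nr6a1 had 8 matches in 4453 bases, the highest number in any of the 20968 genes, and no other gene reached it. Of these 8 matches, 3 also had the A opposite the first base of the microRNA, which makes them 8 bases long. The 3 longer sites of Nr6a1 (chromosome 2) and the single sites of Esr2 and Esrrb (chromosome 12) are given with the match in capitals, and numbers count bases after the stop codon.
Nr6a1, match from base 371: cataatgttgacaaagacaaCTACCTCAat
Nr6a1, match from base 1228: gaaaggaaaggggcattaaaCTACCTCAtg
Nr6a1, match from base 4135: atggcaagtgcatcatgaacCTACCTCAgg
Esr2, match from base 452: aatcaactcgtttcgcattcCTACCTCAca
Esrrb, match from base 617: ccctcccctgcttcctgcccCTACCTCAgc
A match describes the annotated sequence and is not a measurement of binding. The other receptor genes had no match, among them genes with longer regions, such as Rora with 9285 bases and Rorb with 7275 bases.

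**Figure D1:**
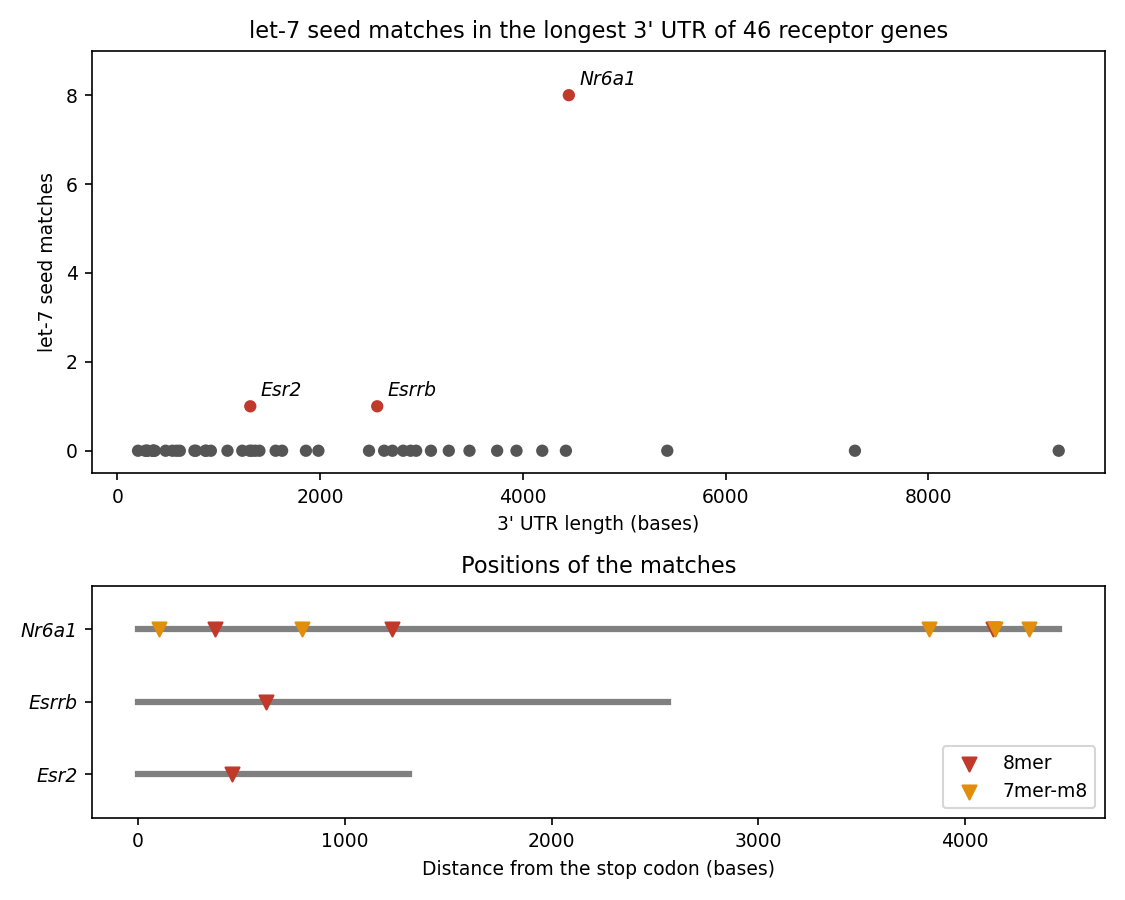
The upper panel plots, for each of the 46 receptor genes, the number of let-7 seed matches (y axis) against the length of the longest annotated 3' untranslated region in bases (x axis), and Nr6a1 stands alone with 8 matches. The lower panel shows the distance of each match from the stop codon in bases (triangles, matches of 8 or 7 bases) along the regions (grey bars) of Nr6a1, Esrrb and Esr2.

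The labelled cell type was checked against marker lists. Of 11 mesenchymal stem cell markers, 10 were at 1 FPKM or more in every library, while Thy1 was at 0.0297 FPKM or less. Among the fixed markers of blood, endothelium, epithelium, skeletal muscle and germ cells the highest value was 3.74 FPKM, for the muscle gene Des. The fixed adipocyte list was higher, summing to 73.3 to 286 FPKM, nearly all of it Fabp4. The summed blood list was at 1.17 to 2.20 FPKM and the endothelial list at 0.0447 to 0.185 FPKM. Spacing of the low FPKM values gave estimated depths at which a level of 1 FPKM corresponds, for a 2000-base transcript, to 36.7 to 43.4 reads per library. A count of 0 there allows a level of up to 0.0692 to 0.0817 FPKM (3 reads, counting error only). In such bulk RNA, fewer expressing cells and less RNA per cell cannot be told apart.

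The first comparison asked what NR6A1 did to its own family. Nr6a1 checked the labels. It was at 598 and 783 FPKM with NR6A1 (clone 12, then clone 6), against 2.80 and 4.18 FPKM with vector. The NR6A1 libraries were therefore far above both vector libraries, with means of 690.1 ± 131 and 3.49 ± 0.973 FPKM (SD, n = 2 each). On the log2(FPKM + 1) scale Nr6a1 rose by 7.27 ± 0.07 (SE), with a limma adjusted p of 0.000488. These values do not separate reads of the virus from reads of the cell's own gene. With vector, Nr6a1 ranked 20th of the 46 receptor genes by mean FPKM, and with NR6A1 it ranked above the rest. The other 45 receptor genes summed to 461 and 478 FPKM in the NR6A1 libraries of clone 12 and clone 6, against 445 and 454 FPKM in the vector libraries. Nr6a1 alone thus exceeded that sum in each NR6A1 library.

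Nr6a1 was the 1 receptor gene of 26 past the threshold of 0.05 in limma's test with Benjamini-Hochberg adjustment, against a background of 0.0353% of all genes tested (4 of 11346, with 0.0264% higher and 0.00881% lower). With any 1 library omitted its log2 change was 7.05 to 7.49 and its adjusted p 0.106 to 0.366. At an unadjusted p under 0.05 there were 6 receptor genes, 4 higher and 2 lower with NR6A1, against a background of 8.48% of genes tested (3.47% higher, 5.01% lower). The 4 were Nr6a1, Vdr, Rarg and Rxra, and the 2 were Thra and Nr1h4. Of the 26, 12 were higher in both clones (background 28.9%), 7 were lower in both (29.4%) and 7 went opposite ways. Without Nr6a1, the gene that the virus carried, 11 of 25 were higher in both clones. At least 1.2-fold in both clones on the log2(FPKM + 1) scale, 2 were higher (Nr6a1 and Vdr, background 2.14%). By that measure 2 were lower (Thra and Nr1h4, background 3.55%). As a plain FPKM ratio Esr1 was also lower by that much, at 0.814 in clone 12 and 0.625 in clone 6. The share of all genes at that plain ratio was not counted. Nr1h4 passed the filter only through the vector library of clone 12, so a high vector mean was part of its selection for these counts. Both NR6A1 libraries lay above both vector libraries for 7 genes (6 without Nr6a1, background 9.68%) and below them for 4 (background 10.7%). The median log2 change was 0.08 over the 26 receptor genes and 0.00098 over all genes tested.

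**Figure D2:**
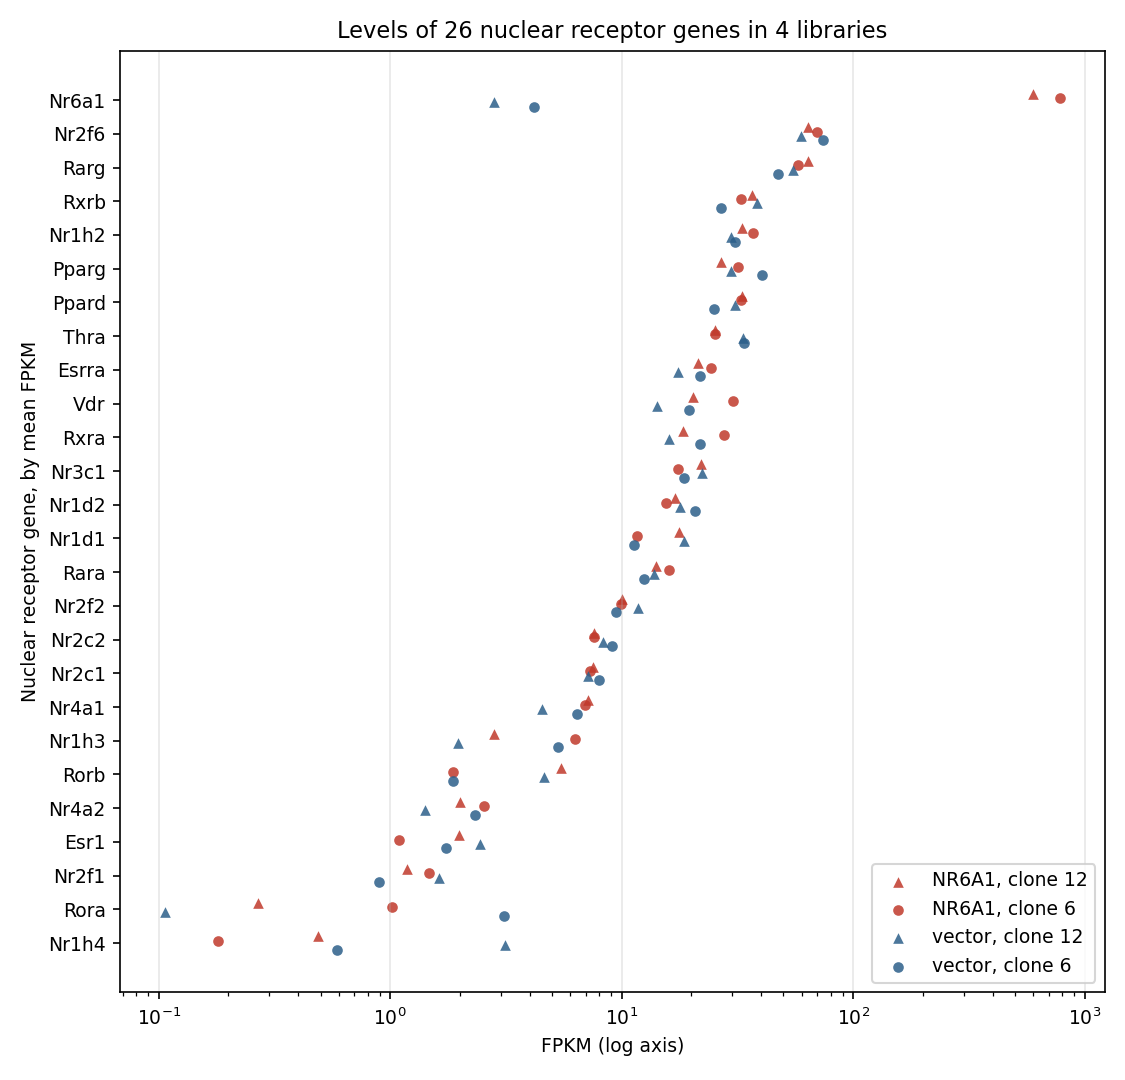
FPKM on a log axis for the 26 receptor genes tested, 1 point per library (red, NR6A1; blue, vector; triangles, clone 12; circles, clone 6). Nr6a1 is the gene whose colours stand furthest apart, while the shapes separate for Nr1h3, Rorb and Rora.

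The vitamin D receptor gene Vdr had the largest difference in the higher direction after Nr6a1. Vdr was at 20.3 and 30.1 FPKM with NR6A1 (clone 12, then clone 6), against 14.3 and 19.6 FPKM with vector. Both NR6A1 libraries were above both vector libraries, and the ratio was 1.42 in clone 12 and 1.54 in clone 6. The log2 change was 0.54 ± 0.08 (SE), with a limma adjusted p of 0.265. Of 8 genes fixed as vitamin D targets and activation enzymes, 3 were tested and none passed between viruses, beside 0.0353% of all genes. Of the xenobiotic receptors, Nr1i2 and Nr1i3 stayed at 0.0765 FPKM or less.

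The thyroid hormone receptor gene Thra was lower with NR6A1 by nearly the same ratio in both clones. Thra was at 25.2 and 25.3 FPKM with NR6A1 (clone 12, then clone 6), against 33.4 and 33.7 FPKM with vector. The groups did not overlap, with means of 25.3 ± 0.0730 and 33.5 ± 0.229 FPKM (SD, n = 2 each), and the ratio was 0.756 in clone 12 and 0.752 in clone 6. The log2 change was -0.39 ± 0.07 (SE), and the limma adjusted p was 0.333. The 3' end of Thra lies over that of Nr1d1, the gene of the clock repressor REV-ERB alpha, on the opposite strand, with 263 shared exon bases (8.33% of those of Thra, 9.67% of those of Nr1d1). No strand setting is known for these values, so reads of that stretch could not be assigned. Nr1d1 itself was at 17.7 and 11.7 FPKM with NR6A1 and at 18.6 and 11.3 FPKM with vector, in clone 12 and clone 6. The other thyroid hormone receptor gene, Thrb, was below the filter, at 0.0250 and 0.227 FPKM with NR6A1 and 0.0745 and 0.679 FPKM with vector. Its ratio was 0.336 in clone 12 and 0.335 in clone 6, from few reads and without a test. Of 6 thyroid hormone targets and deiodinases, Klf9 and Hr were tested and neither passed between viruses, beside 0.0353% of all genes.

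Among the retinoid receptors, the retinoic acid receptors gamma and alpha and the retinoid X receptors alpha and beta carried nearly all of the signal. Rarg was at 63.8 and 57.5 FPKM with NR6A1 (clone 12, then clone 6), against 54.9 and 47.2 FPKM with vector. Both NR6A1 libraries were above both vector libraries, and the log2 change was 0.25 ± 0.07 (SE, limma adjusted p = 0.536). Rxra was at 18.5 and 27.6 FPKM with NR6A1, against 16.1 and 21.8 FPKM with vector. Within each clone Rxra was higher with NR6A1, but the groups overlapped, since the vector library of clone 6 exceeded the NR6A1 library of clone 12. Rxrb, at 36.6 and 32.7 FPKM with NR6A1 and 38.4 and 26.9 FPKM with vector, was lower in clone 12 and higher in clone 6. Rara was at 14.01 and 15.9 FPKM with NR6A1 and 13.8 and 12.5 FPKM with vector. Rarb, a receptor gene that retinoic acid is known to induce, was below the filter at 0.491 and 0.367 FPKM with NR6A1 and 0.270 and 0.223 FPKM with vector. Up to 52.9% of the exon bases of Rarb overlap Top2b on the other strand, so its low values are uncertain. Rxrg, the form of muscle and brain, was at 0.0241 FPKM or less.

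The sterol and bile acid receptors went in different directions. Nr1h4, the bile acid receptor FXR of liver and gut, was at 0.488 and 0.180 FPKM with NR6A1 (clone 12, then clone 6), against 3.14 and 0.587 FPKM with vector. Both NR6A1 libraries were below both vector libraries, with a ratio of 0.155 in clone 12 and 0.306 in clone 6. Nr1h4 had passed the filter only through the vector library of clone 12, so a high vector mean was part of its selection. Its log2 change was -0.95 ± 0.33 (SE, limma adjusted p = 0.586), and with pseudocounts of 0.1 and 5 in place of 1 it was -1.88 and -0.34. Without the vector library of clone 12 it was -0.26, and without that of clone 6 it was -1.65. Nr1h2, the oxysterol receptor LXR beta, was at 33.1 and 37.0 FPKM with NR6A1 and 29.6 and 30.8 FPKM with vector, without overlap. Nr1h3, the inducible LXR alpha, was at 2.80 and 6.28 FPKM with NR6A1 and 1.97 and 5.31 FPKM with vector, so that the clones stood further apart than the viruses.

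Of the PPARs, fatty acid receptors, 2 of 3 were expressed. Ppard was at 32.9 and 32.7 FPKM with NR6A1 (clone 12, then clone 6), against 30.8 and 24.995 FPKM with vector. Pparg, the master regulator of fat cells, was at 27.0 and 31.8 FPKM with NR6A1 and 29.6 and 40.4 FPKM with vector. It was lower with NR6A1 within each clone while the groups overlapped, with a log2 change of -0.23 ± 0.09 (SE, limma adjusted p = 0.608). The fixed adipocyte markers summed to 73.3 and 130 FPKM with NR6A1 and 79.4 and 286 FPKM with vector, nearly all of it Fabp4. The other 4, Adipoq, Plin1, Cidec and Retn, were under 1 FPKM in every library, and the part of these markers in the Pparg values was not tested. Ppara, the form of liver, was at 0.128 FPKM or less.

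Esrra, an orphan that drives mitochondrial genes, was at 21.4 and 24.3 FPKM with NR6A1 (clone 12, then clone 6), against 17.5 and 21.8 FPKM with vector. The glucocorticoid receptor gene Nr3c1 was at 22.1 and 17.5 FPKM with NR6A1 and 22.2 and 18.5 FPKM with vector. Its log2 change was -0.04 ± 0.08 (SE), within its error of 0. Esr1, the estrogen receptor alpha gene, was at 1.98 and 1.09 FPKM with NR6A1 and 2.44 and 1.74 FPKM with vector. The early response orphan Nr4a1 was at 7.17 and 6.94 FPKM with NR6A1 and 4.53 and 6.42 FPKM with vector, and its relative Nr4a2 was at 1.99 and 2.55 FPKM with NR6A1, against 1.41 and 2.32 FPKM with vector. None of these genes passed, and their limma adjusted p ran from 0.605 for Esrra to 0.872 for Nr3c1.

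Nr2f6, also called EAR2, was the most abundant receptor gene besides Nr6a1. It was at 63.6 and 70.0 FPKM with NR6A1 (clone 12, then clone 6), against 59.4 and 73.8 FPKM with vector, with a log2 change of 0.01 ± 0.08 (SE). Up to 41.2% of its exon bases overlap Ocel1 on the other strand. Nr2f2 (COUP-TFII), a regulator of mesenchyme, was at 10.0 and 9.96 FPKM with NR6A1 and 11.8 and 9.48 FPKM with vector. Its close relative Nr2f1 was at 1.18 and 1.47 FPKM with NR6A1 and 1.62 and 0.893 FPKM with vector, lower in clone 12 and higher in clone 6. The genes Nr2c1 and Nr2c2 encode orphan receptors of many tissues. Nr2c1 was at 7.53 and 7.32 FPKM with NR6A1, against 7.16 and 7.96 FPKM with vector, and Nr2c2 at 7.61 and 7.62 FPKM with NR6A1, against 8.34 and 9.07 FPKM with vector. Up to 43.5% of the exon bases of Nr2c2 overlap Mrps25 on the other strand. Nr1d2, the gene of REV-ERB beta, was at 17.1 and 15.5 FPKM with NR6A1 and 17.8 and 20.7 FPKM with vector.

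**Figure D3:**
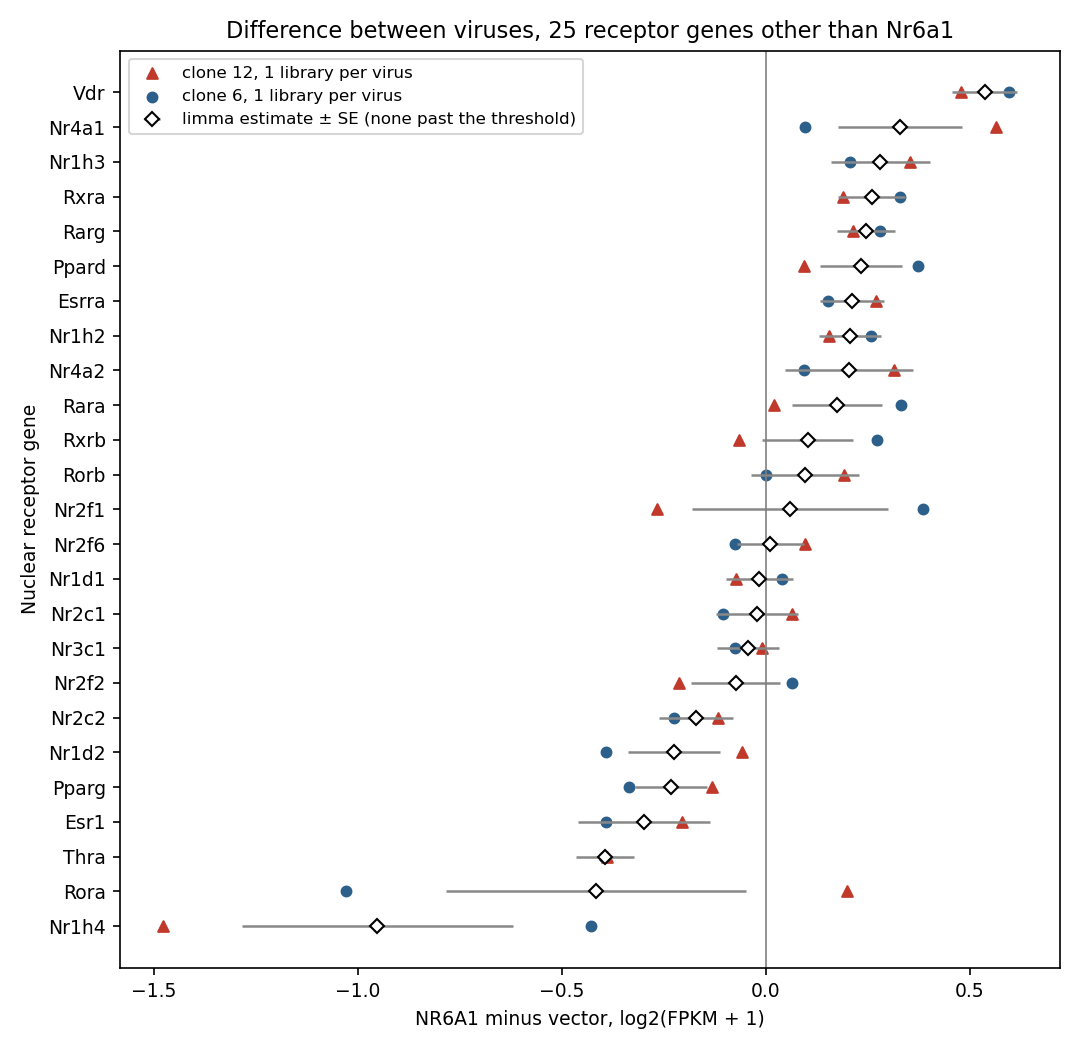
NR6A1 minus vector on the log2(FPKM + 1) scale for 25 receptor genes, with clone 12 as triangles, clone 6 as circles and the limma estimate with its SE as diamonds; none of these genes passed the threshold. Vdr at 0.54 and Thra at -0.39 have both clones close to the estimate, while Rora, Nr1h4 and Nr2f1 have the clones far apart.

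Of the 20 receptor genes below a mean of 1 FPKM, 4 were listed at 0 in all libraries (Pgr, Esrrb, Nr5a2 and Nr2e3) and 14, these 4 included, stayed under 0.1 FPKM. The highest value among the 20 was 0.679 FPKM, for Thrb in the vector library of clone 6. Nr3c2, the mineralocorticoid receptor gene, was at 0.325 and 0.341 FPKM with NR6A1 and 0.313 and 0.434 FPKM with vector. Nr4a3 was at 0.144 and 0.421 FPKM with NR6A1 and 0.232 and 0.195 FPKM with vector, and Esr2 at 0.206 and 0.484 FPKM with NR6A1, against 0.207 and 0.0655 FPKM with vector. The Nr5a genes, whose proteins share with NR6A1 an affinity for an extended single site, were at 0.0369 FPKM or less, as were the liver receptor genes Hnf4a and Hnf4g and the corepressor-like Nr0b1 and Nr0b2. These 20 genes were under the filter and were not tested.

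The second comparison asked how the 2 lines differ in their receptors. Of the 26 tested, 6 passed limma's threshold after Benjamini-Hochberg adjustment, 2 higher in clone 12 (Rorb, Nr1d1; background 11.5%) and 4 lower (Nr1h3, Vdr, Rxra, Nr6a1; background 10.5%). That share, 23.1%, was near the background of 21.9% of all genes tested. At an unadjusted p under 0.05 there were 4 higher (background 22.6%) and 7 lower (18.5%), and without short RNA genes 8 passed (background 31.2%), Pparg and Rora in addition. Under both viruses 9 were higher in clone 12 (background 43.9%) and 12 lower (35.9%), and on the log2(FPKM + 1) scale none differed by 1 or more under both, either higher (2.59%) or lower (2.38%). As plain FPKM ratios of clone 12 to clone 6, Rorb (2.93 with NR6A1, 2.49 with vector) and Nr1h4 (2.71, 5.36) were over 2 under both viruses, and Nr1h3 (0.446, 0.372) and Rora (0.266, 0.0342) were under 0.5. The share of all genes at these plain ratios was not counted, and the 2.59% and 2.38% are not a background for them. Nr1h4 had passed the filter only through the vector library of clone 12, and Rora only through that of clone 6. Each was high there, so the ratios of Nr1h4 and Rora are partly a matter of selection. With the NR6A1 sample of clone 6 omitted 1 of the 26 passed (Rora), and with any other sample omitted 0 passed, when 41 to 110 of all genes did (2200 to 3863 at an unadjusted p under 0.05). Those fits have no virus term. With that term dropped and all 4 libraries kept, 3 of the 26 passed, beside 1993 of all 11346 genes tested. Without a filter on low values 0 passed in limma, of the 26 or of all genes (5360 genes at an unadjusted p under 0.05).

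The ROR genes encode activators of clock and cerebellar genes, and Rorb passed between the lines. Rorb was at 5.44 FPKM in the NR6A1 library and 4.64 FPKM in the vector library of clone 12, and at 1.86 FPKM in both libraries of clone 6. Both libraries of clone 12 were above both of clone 6, and the log2 difference was 1.08 ± 0.13 (SE, limma adjusted p = 0.0231). Rora was at 0.270 and 0.107 FPKM in the NR6A1 and vector libraries of clone 12, and at 1.02 and 3.11 FPKM in those of clone 6. It was lower in clone 12 under both viruses, with a log2 difference of -1.28 ± 0.37 (SE), and did not pass (adjusted p = 0.0821; 0.0343 without short RNA genes). Rora had passed the filter only through the vector library of clone 6. With NR6A1 the level of Rora was lower in clone 6 and higher in clone 12.

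Nr1d1, which represses the clock gene Arntl, was at 17.7 and 18.6 FPKM in the NR6A1 and vector libraries of clone 12, and at 11.7 and 11.3 FPKM in those of clone 6. The groups did not overlap, and Nr1d1 was higher in clone 12 by 0.61 ± 0.08 on the log2 scale (SE, limma adjusted p = 0.0252). Of 14 clock genes fixed around these receptors, 12 were tested and 3 passed, all higher in clone 12, beside 21.9% of all genes called and 11.5% called higher. They were Arntl at 9.72 and 11.4 FPKM in clone 12 and 7.15 and 7.90 FPKM in clone 6, Per3 at 4.87 and 5.03 against 2.92 and 2.98 FPKM, and Tef at 36.6 and 36.3 against 21.3 and 23.8 FPKM. The median log2 difference of the 12 was 0.23, beside 0.04 over all genes tested. Between viruses none of the 12 passed, beside 0.0353% of all genes.

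Nr1h3 was lower in clone 12, at 2.80 and 1.97 FPKM in its NR6A1 and vector libraries, against 6.28 and 5.31 FPKM in those of clone 6. The groups did not overlap, and the log2 difference was -1.01 ± 0.12 (SE, limma adjusted p = 0.0227). Of 10 LXR targets, 9 were tested and 6 passed between lines, 4 higher and 2 lower in clone 12, beside 11.5% and 10.5% of all genes. The cholesterol exporter gene Abcg1 was at 4.63 and 4.20 FPKM in clone 12 and 0.559 and 0.650 FPKM in clone 6, a log2 difference of 1.75 ± 0.16 (SE). Abcg1 averaged 0.605 FPKM in clone 6 and passed the filter only through clone 12, where it was high. Scd2, a fatty acid desaturase gene, was at 453 and 557 FPKM in clone 12 and 279.6 and 365 FPKM in clone 6. Scd1 and Srebf1 were also higher, by 0.45 ± 0.08 and 0.46 ± 0.07 on the log2 scale (SE). Mylip, which marks the LDL receptor for degradation, was lower in clone 12 at 6.85 and 7.54 FPKM against 14.3 and 14.7 FPKM, and Pltp was lower by 0.74 (log2 difference -0.74 ± 0.16, SE).

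Vdr and Rxra were lower in clone 12 under both viruses. Vdr was at 20.3 and 14.3 FPKM in the NR6A1 and vector libraries of clone 12 and at 30.1 and 19.6 FPKM in those of clone 6. These groups overlapped, since the NR6A1 library of clone 12 exceeded the vector library of clone 6, and the log2 difference was -0.49 ± 0.08 (SE, limma adjusted p = 0.0318). Rxra was at 18.5 and 16.1 FPKM in clone 12 and at 27.6 and 21.8 FPKM in clone 6, without overlap, a log2 difference of -0.48 ± 0.08 (SE, adjusted p = 0.0337). Both calls were lost without the virus term, with an adjusted p of 0.258 for Vdr and 0.0914 for Rxra, and without a variance trend (0.0515 and 0.0538). Of the vitamin D genes, the 3 tested all passed between lines, 1 higher and 2 lower in clone 12, beside 11.5% and 10.5% of all genes. Spp1 (osteopontin) was higher in clone 12 by 2.16 ± 0.34 on the log2 scale (SE). Lrp5, a Wnt co-receptor gene, and Bglap (osteocalcin) were lower, with -0.57 ± 0.08 and -2.84 ± 0.46 (SE). Bglap averaged 0.315 FPKM in clone 12 and passed the filter only through clone 6, and it has near-identical neighbouring copies, so its value is uncertain. Nr6a1 was lower in clone 12 by a log2 difference of -0.42 ± 0.07 (SE, limma adjusted p = 0.0342). Its levels were 598 and 2.80 FPKM in the NR6A1 and vector libraries of clone 12, against 783 and 4.18 FPKM in those of clone 6. Reads of the virus are not separated in the NR6A1 libraries, so this is not a difference of the lines' own gene alone. The Nr6a1 call was lost without the virus term (limma adjusted p = 0.943), without a variance trend (0.0581) and with a pseudocount of 5 (0.0607). Without the virus term, libraries with and without the NR6A1 insert are pooled within each clone.

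**Figure D4:**
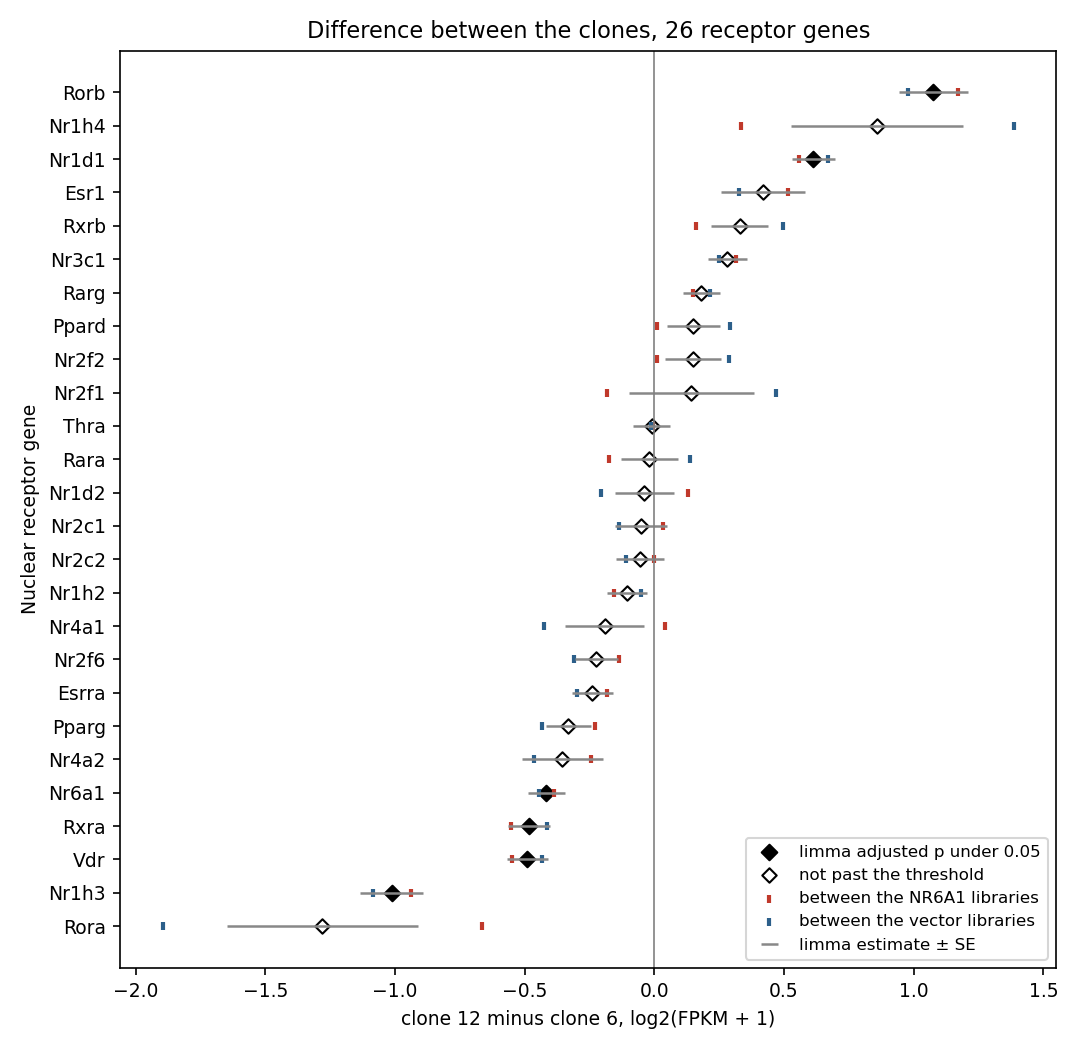
Clone 12 minus clone 6 on the log2(FPKM + 1) scale for the 26 receptor genes, with the limma estimate and its SE (diamonds, filled where the adjusted p is under 0.05) and the difference between the NR6A1 libraries (red) and between the vector libraries (blue). Rorb and Nr1d1 are filled on the higher side, and Nr6a1, Rxra, Vdr and Nr1h3 on the lower side, each with both ticks on the same side of 0.

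Of 16 fixed retinoid handling and target genes, 7 were tested and 4 passed between lines, beside 21.9% of all genes. The retinoic acid binding protein gene Crabp2 was at 14.9 and 17.2 FPKM in the NR6A1 and vector libraries of clone 12 and at 1.49 and 0.528 FPKM in those of clone 6 (log2 difference 3.12 ± 0.25, SE). Its relative Crabp1 went the other way, at 0.630 and 0.402 FPKM in clone 12 against 8.85 and 3.88 FPKM in clone 6 (-2.20 ± 0.25). Crabp1 averaged 0.516 FPKM in clone 12 and passed the filter only through clone 6, where it was high. The transglutaminase gene Tgm2, a retinoic acid target, was higher in clone 12 by 1.23 ± 0.10, and Dhrs3, a retinal reductase gene, was lower with -0.69 ± 0.09. Rarg and Rara did not pass between lines, with log2 differences of 0.18 ± 0.07 and -0.02 ± 0.11 (SE).

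Pparg was at 27.0 and 29.6 FPKM in the NR6A1 and vector libraries of clone 12 and at 31.8 and 40.4 FPKM in those of clone 6, with a limma adjusted p of 0.0699 (0.0414 without short RNA genes). Of 19 PPAR targets, 13 were tested. Between lines 5 passed, beside 21.9% of all genes: Angptl4 and Plin2 were higher in clone 12 (0.67 ± 0.07 and 0.87 ± 0.16, log2 difference ± SE), and Pdk4, Fabp4 and Lpl were lower (-2.27 ± 0.12, -1.32 ± 0.27 and -0.83 ± 0.09). Between viruses no PPAR target passed, beside 0.0353% of all genes. Of the 13, 7 were lower and 3 higher with NR6A1 in both clones, beside 29.4% and 28.9% of all genes. Their median log2 change was -0.12, against 0.00098 over all genes, and the list was chosen with earlier results of these data known. Without short RNA genes Pdk4 and Acadm passed, beside 0.457% of all genes in that setting. Pdk4, which restrains glucose oxidation, was at 2.89 and 20.1 FPKM with NR6A1 (clone 12, then clone 6), against 9.76 and 45.1 FPKM with vector. Acadm, a fatty acid oxidation enzyme gene of the same list that is named here with its values known, was at 49.8 and 48.1 FPKM with NR6A1 and 92.4 and 111 FPKM with vector.

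Glucocorticoid receptor mRNA did not pass between lines (Nr3c1, log2 difference 0.28 ± 0.08, SE, limma adjusted p = 0.0718), although its 2 libraries of clone 12 were above both of clone 6. Of 14 glucocorticoid targets, 12 were tested and 3 passed, all higher in clone 12, again beside 11.5% called higher over all genes. They were Mt2, a metallothionein gene (3.04 ± 0.25), Errfi1, a feedback inhibitor of EGF receptor signalling (0.93 ± 0.09), and Fkbp5, a chaperone that dampens the receptor (0.56 ± 0.07). Of 10 receptor chaperones, all tested, Fkbp5 and Ppid passed, both higher in clone 12 (background 11.5%). Between viruses none of either list passed, beside 0.0353% of all genes.

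Between viruses, of 18 coactivators and 22 corepressors tested none passed, beside 0.0353% of all genes, a share at which lists of this size would rarely hold a call. Their median log2 changes were 0.05 and 0.03. Between lines the acetyltransferase gene Kat2b (0.66 ± 0.08, SE) and the methyl-CpG reader gene Mbd2 (0.51 ± 0.07) were higher in clone 12 (background 11.5%). The methyltransferase gene Prmt1 (-0.46 ± 0.07) and the deacetylase genes Hdac2 (-0.47 ± 0.09) and Hdac5 (-0.75 ± 0.08) were lower (background 10.5%).

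None of 7 embryo and germ line targets known for NR6A1 reached the filter. Nanog was at 0.303 and 0.268 FPKM with NR6A1 (clone 12, then clone 6), against 0.542 and 0.437 FPKM with vector, and its reads may be shared with pseudogenes. Gdf9 was at 0.0910 and 0.206 FPKM with NR6A1, against 0.271 and 0.0768 FPKM with vector.

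Promoter windows of 300 bases (250 before to 50 after a RefSeq start, GRCm38.p6) were found for 42 of the 46 receptor genes, 63 windows in all. They were searched on both strands for the extended single site TCAAGGTCA and for the direct repeat of AGGTCA without a spacer (DR0), both known for NR6A1. The first also lies within the second. Neither was found in a receptor window, and they were found in 0.423% and 0.006% of 32851 windows of all genes. The site AAAGGTCA of the NR4A proteins was in 2 of the 63 windows, those of Rxra and Rxrg, and in 1.51% of all windows. The repeat of AGGTCA with a 1-base spacer (DR1) was in none of the 63 and in 0.04% of all. No match says only that these letters are not in these windows.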

How the data were processed

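The authors deposited FPKM values, 1 per gene and library. Build mm9, Cufflinks 1.0.3 and TopHat 1.2.0 are named, per the submitters' processing notes. The gene annotation and whether counting used strand: not given in the sources used here. From there, values were tested as log2(FPKM + 1) for genes averaging 1 FPKM or more, with limma 3.58.1 in R 4.3.3 (mean-variance trend, two-sided, virus and clone as terms, Benjamini-Hochberg adjustment over all genes tested, threshold 0.05). Fold changes on that scale understate those of low genes. The 2 clones pair the libraries, since each line received both viruses per the labels' protocols; as a check, clone differences correlated across genes between viruses with r = 0.628 (11346 genes, not independent replicates). An interaction of clone and virus leaves no residual degree of freedom and was not tested. The fit was tested on simulated data, where it missed many log2 changes of 1, the smallest size simulated. Changes below that size were not simulated, and every receptor gene except Nr6a1 had such an estimate between viruses. A gene that did not pass may therefore still have changed. Depth was inferred from FPKM steps of 5898 single-transcript genes (51.9% to 52.6% of low values within 0.1 of a whole read), so no count test was run.

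All tested receptor genes were named, and from each list the genes past the threshold in either comparison, or otherwise the 2 most abundant. The members and lists were chosen with earlier results of these data known. Alternatives were pseudocounts of 0.1 and 5, other filters, a robust prior, no variance trend, upper quartile scaling, no replicate block, removal of short RNA genes and each library left out. Sequences came from RefSeq and GENCODE M21 of a later assembly than mm9.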

Additional observations from a re-analysis of the deposited data

Results flagged for a closer look

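For 7 receptor genes NR6A1 went with a higher level in one clone and a lower level in the other, a difference that was not tested because each clone had 1 library per virus. The change in clone 12 minus the change in clone 6, on the log2(FPKM + 1) scale, was 1.23 for Rora, -0.65 for Nr2f1, -0.34 for Rxrb, -0.28 for Nr2f2, 0.17 for Nr2f6, 0.17 for Nr2c1 and -0.11 for Nr1d1. Rora was at 0.270 and 1.02 FPKM with NR6A1 (clone 12, then clone 6), against 0.107 and 3.11 FPKM with vector.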

How the results depend on the processing

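Nr6a1 was the 1 receptor gene past the threshold between viruses in every fit with 4 libraries, and no receptor gene passed with any 1 library left out. In the 11346-gene fit 4 genes passed between viruses; the count was 7 with a pseudocount of 5, 2 without a filter, 38 with a robust prior, 51 without short RNA genes and 0 to 0 with 1 library left out (96 to 286 genes at an unadjusted p under 0.05). Between clones 2490 genes and 6 receptor genes passed; the counts were 0 and 0 without a filter (5360 genes at an unadjusted p under 0.05), 1581 and 3 without a variance trend, and 41 to 889 and 0 to 1 with 1 library left out. Without the replicate block, which pairs the libraries of a clone, 4 genes passed between viruses. Between clones, where virus is the block, 1993 genes and 3 receptor genes did. The causes were not tested, except that fits with 3 libraries hold fewer samples and no block.

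The sign of some log2 changes turned with 1 library left out, none of them past the threshold in such a fit. Between viruses their ranges were -0.028 to 0.44 for Nr4a2, -0.20 to 0.11 for Nr3c1, -0.17 to 0.29 for Nr2f1, -0.22 to 0.070 for Nr2f2, -0.14 to 0.17 for Nr2f6, -0.089 to 0.046 for Nr2c1, -0.017 to 0.54 for Rxra, -0.15 to 0.35 for Rxrb, -0.35 to 0.32 for Nr1d1, -1.36 to 0.53 for Rora, -0.49 to 0.68 for Rorb and -0.26 to 0.82 for Nr1h3. Between clones they were -4.07 to 3.23 for Nr6a1, -0.47 to 0.090 for Nr4a1, -0.051 to 0.34 for Nr2f1, -0.10 to 0.0026 for Nr2c1, -0.17 to 0.058 for Nr2c2, -0.18 to 0.15 for Rara, -0.21 to 0.19 for Thra, -0.036 to 0.34 for Ppard, -0.23 to 0.16 for Nr1d2 and -0.23 to 0.024 for Nr1h2. These fits have no virus term, so for Nr6a1 they mix libraries with and without the NR6A1 insert.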
